A study of Mus musculus with 18 samples.

Results

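Chemokine ligands are small secreted proteins that bind G protein-coupled receptors on leukocytes and direct their migration. They were taken from the deposited gene table by symbol, as the genes named Ccl or Cxcl followed by a digit, together with Cx3cl1, Xcl1 and Pf4. Of the 19094 genes in the table, 38 met this rule, namely 22 CC ligands, 14 CXC ligands, the CX3C ligand Cx3cl1 and the XC ligand Xcl1. Of these, 31 had at least 10 estimated counts in 3 or more of the 18 libraries and are called detected. The other 7, Ccl1, Ccl20, Ccl26, Ccl28, Cxcl15, Cxcl17 and Xcl1, were not.

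The study isolated cardiomyocytes and cardiac fibroblasts from hearts of 16-month-old mice, 3 of them Bag3-P209L Tg+ (Tg+ here) and 3 Bag3-WT (WT here). BAG3 helps HSP70 clear damaged muscle proteins, and P209L replaces a proline of BAG3 with leucine. Each mouse gave 2 cardiomyocyte libraries (rep1 and rep2 in the labels), which were summed, and 1 fibroblast library, so that the 12 cardiomyocyte and 6 fibroblast libraries became 12 columns with the mouse as the unit. Mouse strain, transgene promoter and the cells that express the transgene were not given in the sources used here.

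CC, CXC, CX3C and XC in these names describe the spacing of the first cysteines of the mature protein. Ligands of CCR2 are known to draw monocytes, those of CXCR2 neutrophils, and those of CXCR3 activated T cells, while CXCL12 is a homeostatic ligand of stromal and endothelial cells that retains CXCR4-bearing cells. Many inflammatory chemokine genes are immediate targets of the transcription factor NF-kB, downstream of Toll-like and cytokine receptors, and the CXCR3 ligands are in addition interferon targets.

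Promoters of RefSeq (GRCm38.p6) were matched by symbol for 22 of the 31 detected ligands, and the 250 bases before each start site were searched on both strands. Shown first are the surroundings of the NF-kB motif match farthest from the start site in each of the 4 CXC ligands that held one. These 4 were picked with the cell type differences known, and theirs are among the largest reported further on. The windows therefore give no support for a link between motif and difference. Cxcl3 among them passed the detection rule only through fibroblast libraries, and Ccl9, which also held a match, is not shown. Each line runs 5′ to 3′ along the gene, and capitals mark the match.
Cxcl3 (chr5:90785988-90786077, plus strand): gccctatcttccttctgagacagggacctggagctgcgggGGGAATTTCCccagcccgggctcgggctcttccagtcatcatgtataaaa
Cxcl2 (chr5:90903762-90903851, plus strand): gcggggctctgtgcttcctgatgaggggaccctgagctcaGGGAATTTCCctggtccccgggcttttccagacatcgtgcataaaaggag
Cxcl1 (chr5:90891134-90891223, plus strand): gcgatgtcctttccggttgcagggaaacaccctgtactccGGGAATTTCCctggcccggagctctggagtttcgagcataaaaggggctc
Cxcl10 (chr5:92348999-92349088, minus strand): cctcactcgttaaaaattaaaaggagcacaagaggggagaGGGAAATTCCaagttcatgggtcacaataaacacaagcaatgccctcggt
In Cxcl3, Cxcl2 and Cxcl1 the capitals hold the same letters, and in all 3 the reverse strand matched as well, shifted by 1 base. Cxcl10 differs from them inside the capitals, and a second group of overlapping NF-kB matches lies nearer to its start site, 94 to 104 bases before it. With Ccl9, 5 of 22 detected ligands (22.7%) held an NF-kB match in this window, against 8.23% of all genes with a promoter entry. Of the 5 undetected ligands with an entry, 2 (Ccl1 and Ccl20) held a match too. An interferon response element (GAAA, any 2 bases, GAAA) was found in 3 of 22 (13.6%), against 3.46% of genes, in Ccl19, Cxcl10 and Cxcl14. An AP-1 motif (TGANTCA) was found in 3 of 22, against 7.82% of genes, in Ccl27a, Ccl9 and Cxcl10. A match in letters is not evidence of binding, and no match says only that these letters are absent from this window.

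Libraries differed in depth before any comparison. Cardiomyocyte columns held 2.26 to 7.79 M counts of nuclear genes (M stands for 1e6) and fibroblast columns 11.3 to 15.8 M. The 13 mitochondrial genes, left out here, took 51.7 to 85.5% of the counts in cardiomyocyte columns and 16.7 to 74.2% in fibroblast columns. The 74.2% was that of WT mouse 1, against at most 39.2% in the other fibroblast columns. This library also held 61.3 M counts in total, against 17.3 to 23.3 M in the other fibroblast columns. A floor of 3 counts in a library stood for 0.448 to 8.88 counts per 1e6 nuclear counts (CPM) in cardiomyocyte and for 0.190 to 0.265 CPM in fibroblast libraries. The 24 ligands that passed the detection rule in cardiomyocyte libraries alone are therefore the better measured ones. The other 7 (Ccl17, Ccl19, Ccl25, Ccl27a, Cxcl11, Cxcl3 and Cxcl5) passed only through fibroblast libraries.

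The labels were checked against markers. All 7 cardiomyocyte markers were higher in cardiomyocyte libraries (median log2 fold change 1.88), with summed levels of 2113 to 4979 CPM in cardiomyocyte and 871 to 2094 CPM in fibroblast columns. The 2094 CPM was that of WT mouse 1, against at most 1335 CPM in the other fibroblast columns. Fibroblast markers did not separate the labels. Of 7 tested, 2 (Col1a1 and Col1a2) were higher in cardiomyocyte libraries and 1 (Tcf21) lower, with a median log2 fold change of −0.33. Their sum ran against the labels and was higher in the cardiomyocyte column in 5 of 6 mice. It was 4060 to 17118 CPM in cardiomyocyte and 1562 to 5262 CPM in fibroblast columns. Macrophage markers summed to 1028 to 3537 CPM in cardiomyocyte columns and to 5188 to 17159 CPM in fibroblast columns, and all 10 were lower in cardiomyocyte libraries (median −2.33, edgeR adjusted p under 0.05 for each). The words cardiomyocyte and fibroblast below name the labelled preparations, not pure cell types. In such bulk RNA, fewer cells of a type and less RNA per cell cannot be told apart.

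Cardiomyocyte and fibroblast libraries of the same 6 mice differed for most ligands. In the cell type comparison (edgeR quasi-likelihood test, mouse as block, adjusted over 14811 genes), 25 of the 31 detected ligands were lower in cardiomyocytes and 1, Cxcl12, was higher. Of all genes tested, 42.3% passed, 24.7% lower and 17.6% higher (3651 and 2611 genes). Without TMM scaling 2293 genes were lower and 4787 higher. Among the 24 ligands detected in cardiomyocyte libraries alone, 22 were lower, 1 was higher and 1 did not pass (24.2% of the 12149 genes tested that met the same rule were lower), while of the 7 that passed the detection rule only through fibroblast libraries 3 were lower. Those 7 were counted through the preparation in which they could be high, and no support is drawn from them. The median log2 fold change of the 24 was −2.54, against 0.01 over those 12149 genes.

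The size of the difference spread the ligands widely. Of the 24, a log2 fold change under −2 was found for 14 (6.16% of the 12149 genes), under −4 for 9 (0.774%) and under −6 for 7 (0.115%). In 19 of the 24 the cardiomyocyte library was lower in 6 of 6 mice, which held for 23.6% of the 12149 genes. For 16 of the 24 every cardiomyocyte value lay under every fibroblast value, which held for 15.2% of the 12149 genes.

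**Figure D1:**
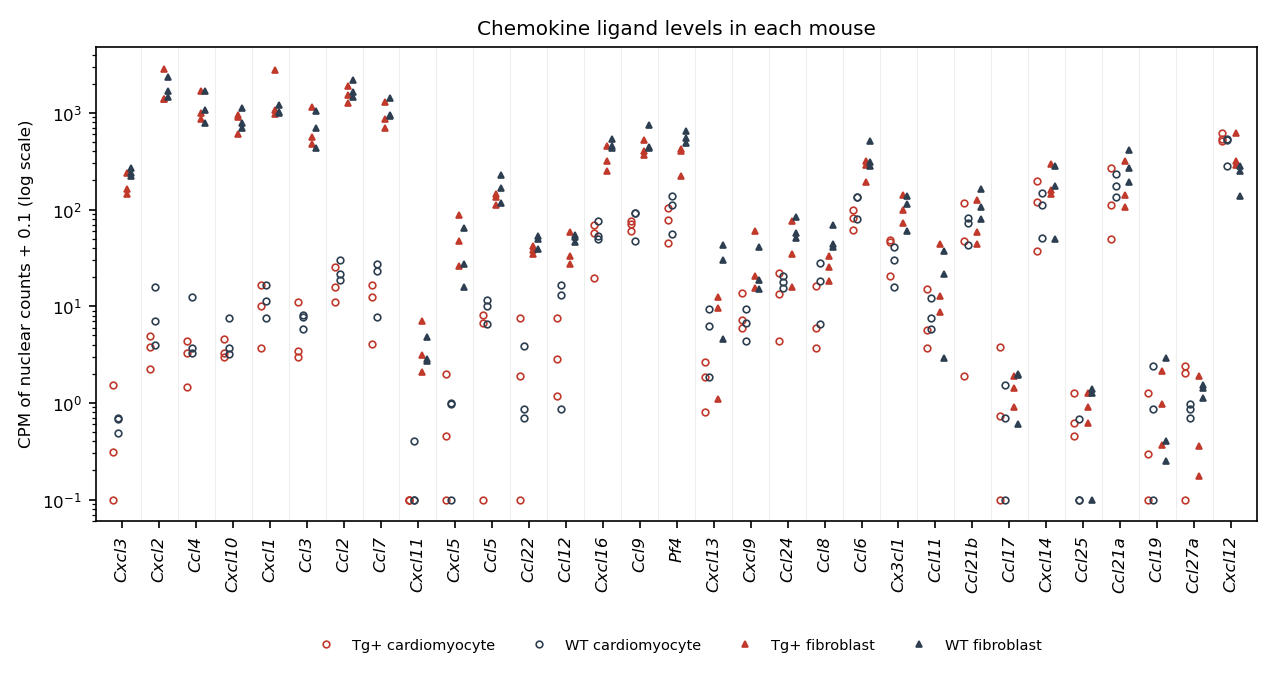
Level of each of the 31 detected chemokine ligands in each mouse, in CPM of nuclear counts plus 0.1 on a log scale. Open circles are cardiomyocyte and filled triangles fibroblast libraries, red for Tg+ and dark blue for WT mice, ordered by the fitted cell type difference. On the left the 2 preparations lie far apart, towards the right they overlap, and in Cxcl12 most circles lie above the triangles.

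The detected neutrophil-attracting ligands of CXCR2 were lower in cardiomyocytes, but Cxcl3 and Cxcl5 among them passed the detection rule only through fibroblast libraries. Cxcl2 had 2.14, 4.37 and 15.7 CPM (lowest, median and highest of 6) in cardiomyocytes, against 1379, 1572 and 2872 CPM in fibroblasts. Cxcl1 had 3.57, 10.6 and 16.6 CPM in cardiomyocytes, against 964, 1041 and 2742 CPM in fibroblasts. Neither gene's groups overlapped, and the highest fibroblast value of each came from Tg mouse 3. Cxcl2 was 327-fold lower in cardiomyocytes (log2 fold change −8.35, SE 0.41, adjusted p = 1.82e-07), and Cxcl1 116-fold lower (−6.85, SE 0.48, adjusted p = 1.56e-06).

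Cxcl3, which lies in the same stretch of chromosome 5 and shares their receptor, had 0, 0.481 and 1.43 CPM in cardiomyocytes, against 146, 228 and 271 CPM in fibroblasts. All 6 cardiomyocyte columns together held 11 counts of it, against 15278 in fibroblasts. The fitted log2 fold change was −8.82 (SE 0.45, adjusted p = 2.02e-07), and the ratio of summed counts, scaled for depth, was 0.00267 (cardiomyocyte over fibroblast, 95% counting interval 0.00133 to 0.00478, counting error only). The fitted value depended on few counts and was −13.43 with rep1 alone. Cxcl5, known in mouse as another CXCR2 ligand, had 0, 0.612 and 1.89 CPM in cardiomyocytes, against 15.9, 36.9 and 88.3 CPM in fibroblasts (−5.78, SE 0.58, adjusted p = 2.14e-05, and −6.80 without Tg mouse 1). Its groups did not overlap either, but its fibroblast level varied 5.56-fold between mice, more than that of Cxcl3 (1.85-fold).

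Ligands of CCR2, which draw monocytes into injured heart, were lower too. Ccl2 (ENSMUSG00000035385.5, chromosome 11, 82035571 to 82037453, plus strand) had 11.1, 19.9 and 30.0 CPM in cardiomyocytes, against 1267, 1587 and 2178 CPM in fibroblasts. It was among the steadiest ligands, varying 2.71-fold between mice in cardiomyocytes and 1.72-fold in fibroblasts. The fall was 83.6-fold (−6.39, SE 0.31, adjusted p = 1.82e-07), with every cardiomyocyte value under every fibroblast value. Ccl7, its neighbour, had 3.92, 14.4 and 27.3 CPM in cardiomyocytes, against 700, 931 and 1409 CPM in fibroblasts (−6.17, SE 0.46, adjusted p = 2.59e-06).

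Further ligands of this neighbourhood differed less. Ccl12, a mouse CCR2 ligand, had a log2 fold change of −3.01 (SE 0.54, adjusted p = 0.00145), and Ccl8 of −1.71 (SE 0.28, adjusted p = 4.98e-04). Ccl12 ranged from 0.768 to 16.5 CPM in cardiomyocytes and from 27.0 to 58.4 CPM in fibroblasts without overlap. Ccl8 ranged from 3.57 to 27.6 CPM in cardiomyocytes and from 18.2 to 68.7 CPM in fibroblasts, so that its groups overlapped.

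Ccl3, Ccl4 and Ccl5, which draw monocytes, macrophages and T cells, split in the same manner. Ccl4 had 1.37, 3.4 and 12.3 CPM in cardiomyocytes, against 793, 1036 and 1698 CPM in fibroblasts (−8.20, SE 0.37, adjusted p = 1.82e-07, and −9.26 with rep1 alone). Ccl3 had 2.85, 6.73 and 10.8 CPM in cardiomyocytes, against 431, 623 and 1144 CPM in fibroblasts (−6.78, SE 0.40, adjusted p = 5.94e-07). Both were highest in the fibroblast library of Tg mouse 3 and lowest in that of WT mouse 2, and neither overlapped between preparations. Ccl5 had 0, 7.28 and 11.6 CPM in cardiomyocytes, against 110, 140 and 226 CPM in fibroblasts (−4.46, SE 0.48, adjusted p = 5.34e-05), with the 0 in Tg mouse 3.

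Ccl6 and Ccl9, CCR1 ligands of rodent macrophages, were well represented in both preparations. Ccl6 had 61.0, 90.4 and 135 CPM in cardiomyocytes, against 194, 298 and 510 CPM in fibroblasts (−1.68, SE 0.25, adjusted p = 3.49e-04). Ccl9 had 46.8, 73.9 and 93.1 CPM in cardiomyocytes, against 364, 434 and 751 CPM in fibroblasts (−2.70, SE 0.27, adjusted p = 1.66e-05). Neither overlapped, yet both differed by far less than Ccl3 and Ccl4, which lie in the same stretch of chromosome 11.

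Among the CXCR3 ligands, Cxcl10 stood apart. Cxcl10 had 2.85, 3.38 and 7.52 CPM in cardiomyocytes, against 601, 841 and 1127 CPM in fibroblasts (204-fold lower, −7.67, SE 0.31, adjusted p = 1.82e-07). Cxcl9, induced mainly by interferon gamma, had 4.22, 6.90 and 13.6 CPM in cardiomyocytes, against 14.8, 19.5 and 60.4 CPM in fibroblasts (−1.75, SE 0.23, adjusted p = 1.18e-04). Cxcl11 had 1 count over all cardiomyocyte libraries together and 263 in fibroblasts, a ratio scaled for depth of 0.0141 (cardiomyocyte over fibroblast, 95% counting interval 0.000356 to 0.0793). It passed the threshold as well (adjusted p = 3.66e-04), but GENCODE M21 types Cxcl11 as a polymorphic pseudogene.

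Cx3cl1, a membrane-anchored ligand of CX3CR1 (ENSMUSG00000031778.13, chromosome 8, 94772009 to 94782427, plus strand), had 15.6, 35.7 and 48.0 CPM in cardiomyocytes, against 60.2, 107 and 140 CPM in fibroblasts. The groups did not overlap, with the lowest cardiomyocyte value in WT mouse 3 and the lowest fibroblast value in WT mouse 1. Cx3cl1 was 3.17-fold lower in cardiomyocytes (−1.66, SE 0.25, adjusted p = 2.85e-04). Its neighbour Ccl22, a CCR4 ligand of dendritic cells and macrophages, ranged from 0 to 7.54 CPM in cardiomyocytes and from 35.0 to 52.5 CPM in fibroblasts (−4.40, SE 0.56, adjusted p = 1.37e-04, and −5.01 without Tg mouse 2). In fibroblasts Ccl22 varied least of all detected ligands (coefficient of variation 16.2%).

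Pf4, a CXC ligand stored in platelet granules and also made by tissue macrophages (ENSMUSG00000029373.7, chromosome 5, 90772435 to 90773383, plus strand), had 45.3, 91.0 and 139 CPM in cardiomyocytes, against 222, 452 and 647 CPM in fibroblasts. The groups did not overlap, and Tg mouse 3 was lowest in both preparations. Pf4 was 5.18-fold lower in cardiomyocytes (−2.37, SE 0.24, adjusted p = 1.99e-05). Platelet markers moved the same way at far lower levels, with 4 of 6 lower (median −3.39), a summed level of 1.07 to 7.68 CPM in cardiomyocyte and 11.7 to 36.2 CPM in fibroblast columns, and Treml1 at 0 in all cardiomyocyte columns. Of the 6, 0 had enough counts to enter the genotype comparison in cardiomyocytes. Ppbp, a platelet chemokine whose symbol is outside the rule, was at −3.39 (SE 0.43). The part of platelets and macrophages in the Pf4 difference was not tested.

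Other ligands of lymphoid and tissue homing were lower by smaller steps. Cxcl16, a scavenger receptor and CXCR6 ligand, was at −2.97 (SE 0.24), Cxcl13, the CXCR5 ligand of B cell follicles, at −2.02 (SE 0.34), and the eosinophil attractant Ccl24 at −1.74 (SE 0.21). The eotaxin Ccl11 (−1.08, SE 0.37, adjusted p = 0.0344), the tissue chemokine Cxcl14 (−0.74, SE 0.26, adjusted p = 0.0374) and the CCR7 ligand Ccl21a (−0.60, SE 0.22, adjusted p = 0.0465) passed by a narrow margin. These 3 calls depended on the processing. Without TMM scaling, which moved the median of all genes to 0.40, they were −0.62, −0.27 and −0.14 and did not pass.

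Cxcl12 was the exception in direction (ENSMUSG00000061353.11, chromosome 6, 117168535 to 117181367, plus strand). Cxcl12 had 283, 528 and 624 CPM in cardiomyocytes, against 137, 285 and 620 CPM in fibroblasts. The ranges overlapped over mice, but within each mouse the cardiomyocyte library was higher, by a log2 ratio of 0.69 to 1.05 in 5 mice and of 0.01 in Tg mouse 3, whose fibroblast library held the 620 CPM. The fitted log2 fold change was 0.77 (SE 0.20, adjusted p = 0.00989, n = 6), and 0.98 without Tg mouse 3. Markers of endothelium, a known source of Cxcl12, summed to 1753 to 4210 CPM in cardiomyocyte and 2113 to 3986 CPM in fibroblast columns, smooth muscle markers were higher in 4 of 4 in cardiomyocyte libraries (median 3.36, 350 to 3063 against 84.4 to 160 CPM), and the part of these cells in the Cxcl12 difference was not tested.

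The 5 detected ligands that missed the threshold were low or shared sequence with other genes. Ccl17, a CCR4 ligand, had 0, 0.615 and 3.67 CPM in cardiomyocytes, against 0.512, 1.57 and 1.91 CPM in fibroblasts (−0.79, SE 0.87, adjusted p = 0.490). The thymic CCR9 ligand Ccl25 was at −0.69 (SE 1.09, adjusted p = 0.636), the CCR7 ligand Ccl19 at −0.55 (SE 1.11, adjusted p = 0.714) and the skin CCR10 ligand Ccl27a at 0.30 (SE 1.07, adjusted p = 0.839), all at most 2.79 CPM in any column. At this depth and spread their differences were not detectable. The direction of Ccl27a was unsettled, since it was negative under the authors' normalized table, and that of Ccl19 turned without WT mouse 2.

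Ccl21b, by contrast, was abundant and held 1 cardiomyocyte column far from the rest. It had 1.78, 59.6 and 117 CPM in cardiomyocytes, against 43.5, 93.2 and 165 CPM in fibroblasts (−0.93, SE 0.49, adjusted p = 0.150). The 1.78 CPM came from Tg mouse 3, and without that mouse the value was −0.43 with an adjusted p of 0.0818. Ccl21b shared 100% of its 31-base words with other annotated genes, Ccl21a 80.6%, Ccl19 58.8% and Ccl27a 57.0%, so how reads were divided among these copies is uncertain. The ratio of Ccl21b to Ccl21a was 0.320 to 0.436 in 11 columns and 0.0357 in the cardiomyocytes of Tg mouse 3. Summing the repeats hid a further gap in the cardiomyocytes of WT mouse 3. There rep1 held 0 counts of Ccl21b and 34 of Ccl21a, and rep2 held 150 and 435.

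The undetected ligands had few counts in both preparations. Ccl20, a CCR6 ligand, had 1 count over all libraries together, and Ccl26 had 0 in cardiomyocyte and 8 in fibroblast libraries. Ccl1 had 2 counts in cardiomyocyte and 56 in fibroblast libraries, of which 46 were in WT mouse 1. Cxcl17, a mucosal ligand, had 45 counts in cardiomyocyte libraries, of which 35 were in 1 library of Tg mouse 1, and 3 in fibroblasts. Ccl28, Cxcl15 and Xcl1 had 9.31, 15.0 and 11 counts in cardiomyocyte libraries and 42.2, 11.0 and 65 in fibroblast libraries. Of the 3 that entered the fit, Cxcl15, Cxcl17 and Xcl1, none passed, and Cxcl17 came nearest (log2 fold change 3.90, adjusted p = 0.0501).

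Levels of different ligands were compared per kilobase of exon union (GENCODE M21). In cardiomyocytes the median was highest for Ccl21a at 179 CPM per kilobase, Ccl21b at 148, Pf4 at 126 and Cxcl12 at 64.6, with Cxcl14 next at 63.3. This order is not settled, since values overlapped over mice, with 57.4 to 308 for Ccl21a, 4.44 to 290 for Ccl21b and 62.8 to 192 for Pf4. How reads were divided between Ccl21a and Ccl21b is also uncertain, as given above. In fibroblasts the median was highest for Ccl4 at 1569 CPM per kilobase, followed by Ccl2 at 1394, Ccl7 at 1163, Ccl3 at 814 and Cxcl2 at 760. The neighbours in the fibroblast order overlapped over mice, with 1201 to 2573 for Ccl4, 1113 to 1913 for Ccl2 and 874 to 1759 for Ccl7. Cxcl12 has a long annotated exon union of 8.18 kilobases, which lowers its value on this scale.

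Most ligand genes lie in neighbourhoods. Joined where neighbours were at most 1 Mb apart (GRCm38), 29 of the 38 genes formed 7 groups. On chromosome 5 from 90759360 to 90905938, Pf4, Cxcl1 and Cxcl2 were lower in cardiomyocytes, by log2 fold changes of −8.35 to −2.37. Cxcl3 (−8.82) and Cxcl5 were lower too, but passed the detection rule only through fibroblast libraries. Cxcl15 in the same stretch was undetected. On chromosome 5 from 92321347 to 92365485, Cxcl9, Cxcl10 and Cxcl11 were lower, with −7.67 and −1.75 as the extremes. Of these, Cxcl11 passed the detection rule only through fibroblast libraries.

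On chromosome 11 from 82035571 to 82305690, 5 of 5 detected genes (Ccl2, Ccl7, Ccl11, Ccl12 and Ccl8) were lower, by −6.39 to −1.08, and from 83525778 to 83664683, 5 of 5 (Ccl5, Ccl9, Ccl6, Ccl3 and Ccl4) by −8.20 to −1.68. On chromosome 8 from 94745590 to 94812036, Ccl22 and Cx3cl1 were lower and Ccl17 did not pass. On chromosome 4 from 41769467 to 42773993, where Ccl27a, Ccl21b, Ccl19 and Ccl21a lie, 1 of 4 passed. Within each of the 4 groups on chromosomes 5 and 11 named here, the direction was shared while the sizes differed by more than 5 on the log2 scale. Both hold with Cxcl3, Cxcl5 and Cxcl11 left out.

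**Figure D2:**
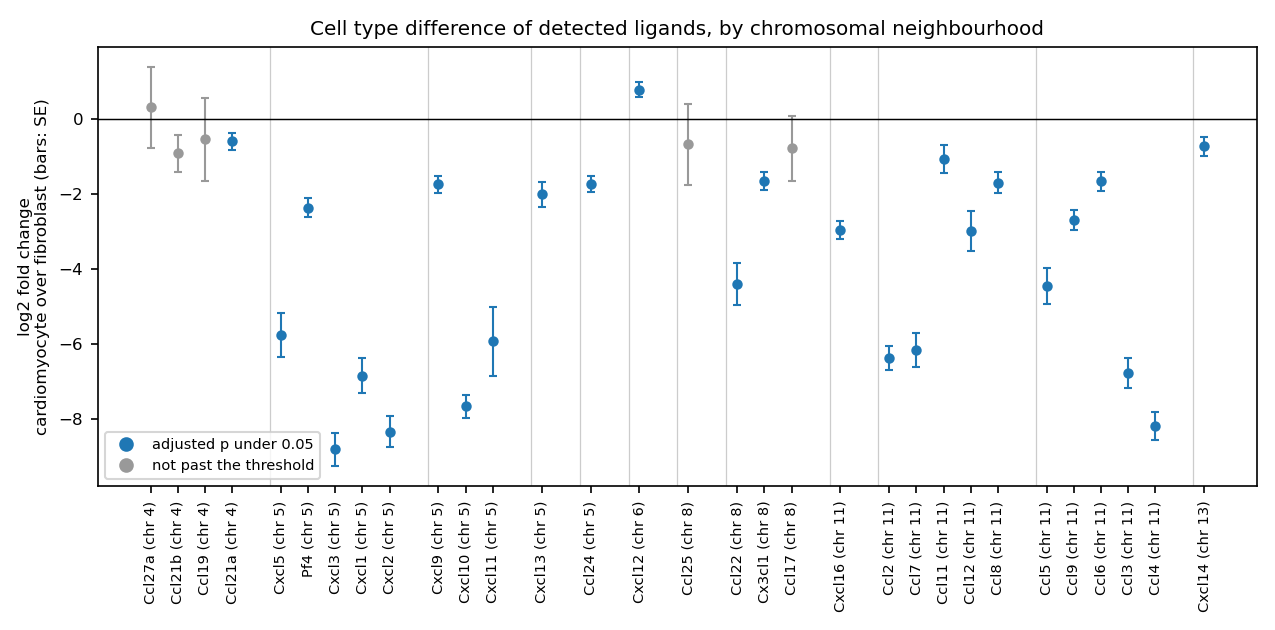
Log2 fold change of cardiomyocyte over fibroblast for each detected ligand, with bars for 1 SE, in chromosomal order, with lines between groups of genes more than 1 Mb apart. Blue points passed an adjusted p of 0.05. The groups on chromosomes 5 and 11 hold both the lowest values and values above −2.5. The lowest, −8.82, is that of Cxcl3, which passed the detection rule only through fibroblast libraries.

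Genes around the ligands were examined with lists that cover reception, induction and breakdown. Of all genes tested, 24.7% were lower in cardiomyocytes and 17.6% higher. Of 21 chemokine receptors tested, 10 were lower in cardiomyocytes and 0 higher (median −2.23). Of the receptors on this list, 12 had enough counts to enter the genotype comparison in cardiomyocytes given below. Values of the others depend on few cardiomyocyte counts, and no support is drawn from this list. The atypical receptor Ccrl2 was at −4.42 (SE 0.31) and the dendritic cell receptor Ccr7 at −4.13 (SE 0.31). Of 20 NF-kB and Toll-like receptor genes 19 were lower (median −2.62), with the feedback inhibitor Tnfaip3 at −4.97 (SE 0.24), the NF-kB subunit Rel at −4.96 (SE 0.27) and the receptor Tlr2 at −5.54 (SE 0.31).

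Of 12 chemokine-inducing cytokines and their receptors, 10 were lower (median −4.62). The interferon gene Ifnb1 was at −8.82 (SE 0.42), Tnf at −7.59 (SE 0.39) and Il1a at −8.50 (SE 0.44). Only 7 of the 12 had enough counts to enter the genotype comparison in cardiomyocytes. The median and the largest values of this list therefore depend on few cardiomyocyte counts, and no support is drawn from them. Of 8 interferon signalling genes 6 were lower, among them Irf1 at −2.97 (SE 0.21), Stat2 at −2.06 (SE 0.21) and Ifnar1 at −1.84 (SE 0.21). Of 6 proteases known to cleave or shed chemokines, Mmp9 (−2.07, SE 0.20), Adam17 (−1.61, SE 0.21) and Mmp14 were lower and Adam10, a sheddase of CX3CL1, was higher at 0.93 (SE 0.21, adjusted p = 0.0041).

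Markers of blood and tissue cells were read beside these counts. The macrophage markers Cd14, Cd68 and Itgam were at −4.76 (SE 0.24), −3.50 (SE 0.26) and −2.45 (SE 0.19). Of the neutrophil markers 2 of 5 were lower, of T and NK cell markers 0 of 6, and of B cell markers 3 of 4, against 24.7% of all genes tested. The T and NK cell sum was higher in the cardiomyocyte column in 4 of 6 mice. Of 4 mast cell markers 0 were lower and 1, Cma1, was higher (median 0.87). Of 5 mesothelial markers 4 were higher and 1 lower (median 2.66), against 17.6% of all genes tested higher. The median log2 fold change was −2.54 for the 24 ligands detected in cardiomyocyte libraries alone and −2.33 for the 10 macrophage markers, all of which were lower. A value under −4 was found for 9 of these 24 ligands and for 1 of these 10 markers, Cd14. The part of macrophages in the ligand differences was not tested.

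The ligands were next compared between Tg+ and WT mice within each preparation. In cardiomyocytes no ligand differed by the test. Of 12078 genes tested 0 passed (0.0%), and 83 had an unadjusted p under 0.05 (0.687%, edgeR, 3 against 3 mice). Of the 22 detected ligands that entered this fit, 0 passed and 0 had an unadjusted p under 0.05. Their log2 fold changes (Tg+ over WT) ran from −1.40 to 0.41 with a median of −0.38, against 0.04 for all genes tested, and 18 were negative and 4 positive. Without Tg mouse 3, 24 ligands entered the fit, 15 were negative and 9 positive, and the median was −0.12, against −0.04 for all genes tested. Without Tg mouse 2, 23 entered, 20 were negative and 3 positive, and the median was −0.87, against 0.03. Leaving out Tg mouse 1 or any WT mouse gave 17 or 18 negative and medians of −0.43 to −0.23.

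The 3 ligands with the lowest p in cardiomyocytes, none of which passed, were Cxcl2, Ccl6 and Ccl8. Cxcl2 had 3.68, 4.83 and 2.14 CPM in Tg+ mice 1, 2 and 3, against 15.7, 3.90 and 6.94 CPM in WT mice 1, 2 and 3 (−1.29, SE 0.71, edgeR adjusted p = 1, and −0.59 without WT mouse 1). Ccl6 had 98.8, 82.0 and 61.0 CPM in Tg+ mice, against 79.1, 135 and 134 CPM in WT mice (−0.52, SE 0.34, edgeR adjusted p = 1). Ccl8 had 5.89, 16.2 and 3.57 CPM in Tg+ mice, against 6.53, 27.6 and 18.2 CPM in WT mice (−1.02, SE 0.71, edgeR adjusted p = 1). Leaving out each mouse in turn gave −1.86 (without Tg mouse 2) to −0.53 for Ccl8. The genotypes overlapped for all 3, and for every other detected ligand too, while 5.04% of all genes tested did not overlap. Tg mouse 3 had the lowest cardiomyocyte level of 21 of the 31 detected ligands, tied at 0 with WT mouse 1 for Ccl17 and with WT mouse 2 for Ccl19. How many of all genes were lowest in this column was not counted. The same column had the lowest sum of macrophage markers, 1028 CPM against 2209 to 3537 CPM in the other 5 mice, and of mesothelial markers, 33.9 CPM against 336 to 921 CPM. It was also lowest for neutrophil (3.92 CPM), T and NK cell (3.21 CPM), B cell (3.21 CPM), mast cell (9.27 CPM) and platelet markers (1.07 CPM). The part of these cells in the genotype values was not tested.

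Ccl2 in cardiomyocytes was 15.7, 25.1 and 11.1 CPM in Tg+ mice, against 18.4, 30.0 and 21.4 CPM in WT mice (−0.42, SE 0.42). Cxcl12 was 532, 511 and 624 CPM in Tg+ mice, against 283, 530 and 527 CPM in WT mice (0.32, SE 0.37). Cx3cl1 was at 0.41 (SE 0.48) and Pf4 at −0.43 (SE 0.44). None separated the genotypes, the adjusted p of each was 1 (edgeR), and the lists of receptors, inducers and proteases held 0 genes past the threshold.

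In fibroblasts 0 of 13798 genes passed (0.0%), 686 had an unadjusted p under 0.05 (4.97%), and the genotypes did not overlap for 13.0% of genes. Of the 31 detected ligands 0 passed, 2 had an unadjusted p under 0.05 and 3 (9.68%) did not overlap, a share below that of all genes. The median log2 fold change of the ligands was −0.18, against −0.05 for all genes tested.

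Ccl8, a macrophage-derived CC ligand, had 18.2, 33.3 and 25.1 CPM in Tg+ fibroblasts, against 40.6, 68.7 and 43.6 CPM in WT fibroblasts. Every Tg+ value was under every WT value (−0.999, SE 0.29, edgeR adjusted p = 0.769). Pf4 had 403, 419 and 222 CPM in Tg+ fibroblasts, against 647, 550 and 486 CPM in WT fibroblasts, likewise without overlap (−0.69, SE 0.28, edgeR adjusted p = 0.769). Cxcl12 had 289, 315 and 620 CPM in Tg+ fibroblasts, against 137, 282 and 253 CPM in WT fibroblasts, without overlap in the other direction (0.87, SE 0.38, edgeR adjusted p = 0.769, and 0.48 without Tg mouse 3). Ccl8 and Pf4 were the 2 ligands with an unadjusted p under 0.05.

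Macrophage markers differed between the same fibroblast libraries, with sums of 9172, 12587 and 5188 CPM in Tg+ mice, against 17159, 13831 and 14571 CPM in WT mice. These sums did not overlap either, 2 of the 10 markers had an unadjusted p under 0.05 and 0 passed (median −0.78). All 10 were above 0 in each group. Their part in the values of Ccl8 and Pf4 was not tested.

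For every other detected ligand the genotypes overlapped in fibroblasts. Ccl2 had 1267, 1517 and 1891 CPM in Tg+ fibroblasts, against 2178, 1474 and 1656 CPM in WT fibroblasts (−0.18, SE 0.27, edgeR adjusted p = 0.883). Cx3cl1 had 99.2, 140 and 72.7 CPM in Tg+ fibroblasts, against 60.2, 137 and 115 CPM in WT fibroblasts (−0.00174, SE 0.35), and its sign turned in 11 of 14 alternatives. Ccl3 and Ccl4 were also near 0 (SE 0.43 and 0.37). Cxcl1 was above its other values only in Tg mouse 3, at 2742 CPM, against 964 and 1065 CPM in the other Tg+ mice and 1003 to 1200 CPM in WT mice (0.57, SE 0.42).

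**Figure D3:**
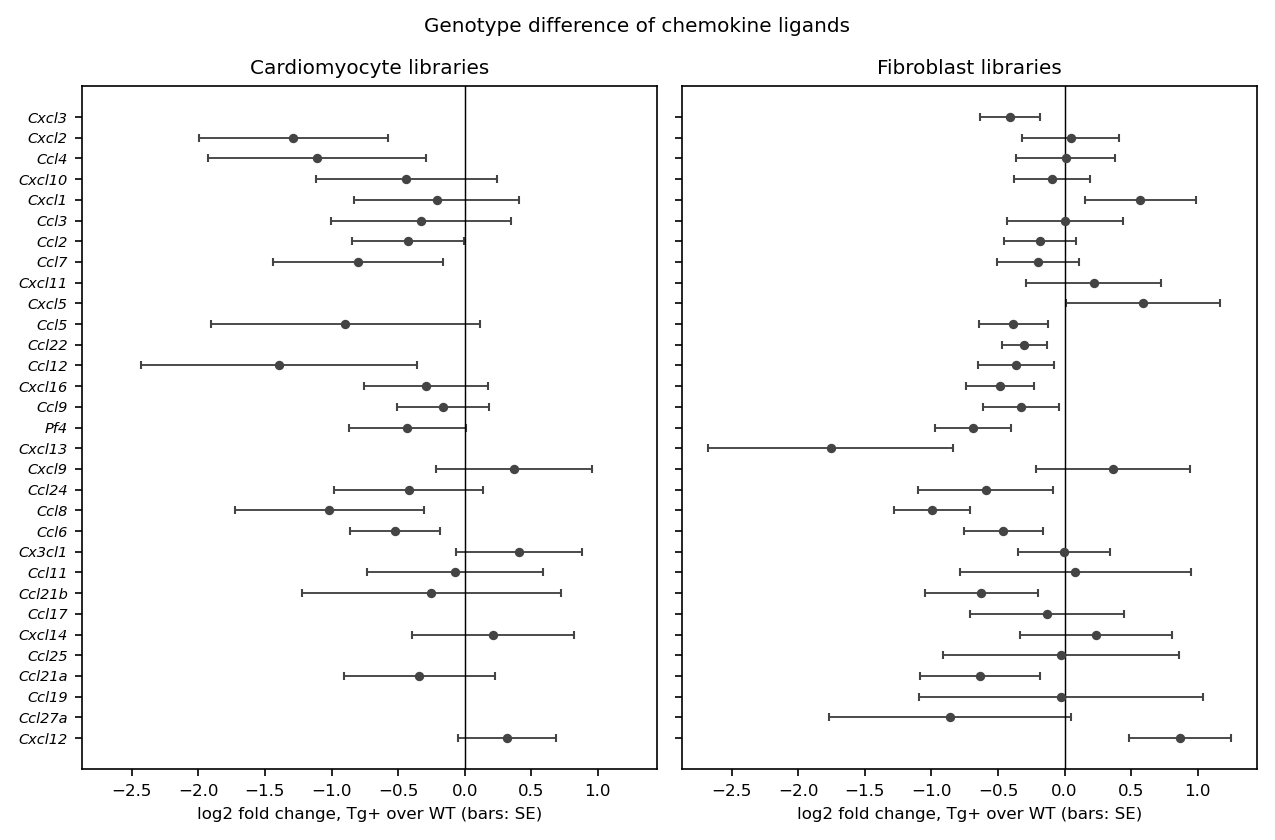
Log2 fold change of Tg+ over WT for the detected ligands, with bars for 1 SE, in cardiomyocyte libraries on the left (22 ligands entered the fit) and fibroblast libraries on the right (31 ligands). No ligand passed an adjusted p of 0.05 in either, and the values ran from −1.40 to 0.41 on the left and from −1.76 to 0.87 on the right.

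Whether the genotype difference itself differed between the preparations was tested as an interaction (cardiomyocyte minus fibroblast). Of 14811 genes 0 passed (0.0%) and 142 had an unadjusted p under 0.05 (0.959%), and of the 31 detected ligands 0 had one. The lowest p belonged to Ccl4 (−0.99, SE 0.58), Cxcl2 (−1.04, SE 0.64) and Cxcl11 (−2.99, SE 2.34), each with an edgeR adjusted p of 1. The Cxcl11 value rests on the 1 cardiomyocyte count named above. The genotype comparisons had limited reach. In simulated counts at this size, 22% of genes changed by 1 on the log2 scale were recovered in cardiomyocytes. In fibroblasts 30% were recovered and in the interaction 6%. Of genes changed by 2, 98%, 100% and 54% were recovered. The simulated spread was the same for every comparison and was not taken from these data, and low genes were left unchanged. The common coefficient of biological variation in the data was 0.488 in cardiomyocytes, 0.285 in fibroblasts and 0.387 in the interaction fit. The recovered shares may therefore be too high for cardiomyocytes, for the interaction and for ligands at low level.

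The summed level of the detected ligands was 1283, 1628 and 978 CPM in Tg+ cardiomyocytes and 975, 1638 and 1417 CPM in WT cardiomyocytes. Cxcl12 made up 29.0 to 63.8% of these sums, and without it they were 751, 1117 and 354 CPM in Tg+ and 692, 1108 and 891 CPM in WT cardiomyocytes, lowest in Tg mouse 3. In fibroblasts it was 8812, 10590 and 15532 CPM in Tg+ mice, against 14647, 10734 and 10969 CPM in WT mice. The genotypes overlapped in both preparations. Among fibroblast libraries, Tg mouse 1 was lowest for 11 of the 31 ligands and highest for 0, Tg mouse 3 was highest for 10 and lowest for 6, and WT mouse 1 was highest for 13 and lowest for 7. The same counts over all genes were not made.

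The ligands for which Tg mouse 3 was the highest fibroblast library included Cxcl1, Cxcl2, Cxcl5, Ccl3 and Ccl4, while it was lowest for Pf4, Cxcl13, Cxcl16 and Ccl24. Its macrophage marker sum, 5188 CPM, was the lowest of the 6 fibroblast libraries. Cxcl13 varied 43.3-fold between fibroblast libraries, with 0.994 CPM in Tg mouse 3 and 43.0 CPM in WT mouse 1. The repeats of a cardiomyocyte sample gave close sums, with rep2 at 1.03 to 1.12 times rep1 in the 6 mice.

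**Figure D4:**
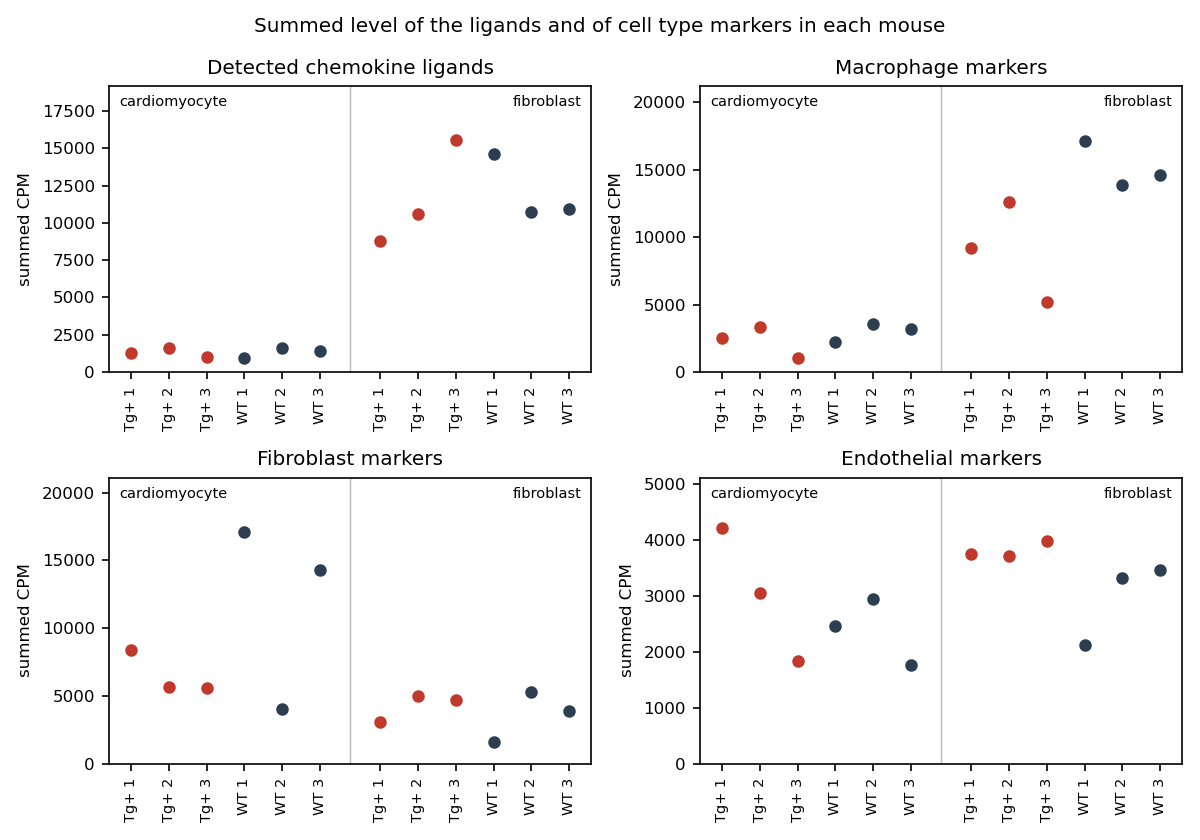
Summed level in CPM of the 31 detected ligands and of macrophage, fibroblast and endothelial markers in each mouse, cardiomyocyte libraries left and fibroblast libraries right of the line, red for Tg+ and dark blue for WT mice. Ligand sums of 975 to 1638 CPM in cardiomyocytes lie under those of 8812 to 15532 CPM in fibroblasts, and macrophage markers in fibroblast libraries are lower in the 3 Tg+ mice.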

How the data were processed

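RNA sequencing of 18 libraries was analysed from 2 tables the authors deposited. In the first, the authors deposited estimated counts (expected counts) per gene, 44.6% of them not whole. The second holds a normalized signal that the authors deposited. As read from the values, it is that count over a factor varying by gene and library, and it served as an alternative only. The build GRCm38.p6 and the tools R 3.4.4, DESeq2 1.18.1 and kallisto 0.44.0 stand in the submitters' processing notes, without a role. Annotation, transcript-to-gene step and strand handling were not given in the sources used here. A second sequencing round of cardiomyocyte samples is stated in the labels, but not whether rep1 and rep2 are those rounds. All columns were mapped to samples (0 left over).

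The 2 cardiomyocyte libraries of a mouse were summed and rounded, the 13 mitochondrial genes left out, and factors of TMM scaling computed over all 12 columns, which also give the CPM values shown. Tests used edgeR 4.0.16 in R 4.3.3 (filterByExpr, robust glmQLFit, glmQLFTest, two-sided, Benjamini-Hochberg over all genes tested, threshold 0.05). The SE is the log2 fold change divided by the root of F. Cell type was fitted with the mouse as block, since both preparations come from the same animals, and genotype in each preparation alone. The tests were checked on simulated counts. Alternatives were DESeq2 1.42.0, limma 3.58.1, other scaling and filters, the letter F or M of the animal codes as a covariate, single repeats, leaving out each mouse, and the block.

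Described in full were Ccl2, Cxcl12, Cx3cl1 and Pf4. For cell type up to 5 CC and 5 CXC ligands past the threshold with the largest change and at least 5 CPM in the higher preparation were named, with every ligand of the rarer direction and each one missing the threshold. For genotype and interaction the 3 with the lowest p were named, and up to 3 genes of each list, some of which are not reported here. Other ligands are named to account for every member. The members and lists were chosen with earlier results of these data known. Counts over the 24 ligands detected in cardiomyocyte libraries alone, and over the genes meeting the same rule, were added after the values were seen. Positions, exon unions and shared 31-base words come from GENCODE M21.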

Additional observations from a re-analysis of the deposited data

Results flagged for a closer look

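Within-mouse log2 ratios of cardiomyocyte over fibroblast CPM were examined for 1 mouse lying far from the other 5, which held for 3 of 31 ligands, while chance alone gives about 1 in 20. Ccl21b was at −4.42 in Tg mouse 3, against −1.01 to 0.10 in the other mice. Cxcl12 was at 0.01 in Tg mouse 3, against 0.69 to 1.05 in the others. Pf4 was at −3.50 in WT mouse 1, where its cardiomyocyte library held 56.0 CPM and its fibroblast library 647 CPM, the highest of the 6.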

How the results depend on the processing

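Over 15 alternatives, 23 to 26 of 31 ligands passed in the cell type comparison, 22 to 25 lower and always 1 higher, Cxcl12. Of the 26 that passed, 23 kept their call under every alternative. Ccl11 lost it in 9, Ccl21a in 11 and Cxcl14 in 6 of 15. Leaving out each mouse gave 23 to 25. Without TMM, 4787 genes were higher and 2293 lower, against 2611 and 3651 with it.

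Without the mouse as replicate block, 23 ligands passed, 22 lower and 1 higher. The repeat numbers of cardiomyocyte libraries pair no mice across genotypes (mean correlation of deviations 0.02, −0.46 to 0.42, 18 pairs), and with them as a replicate block 0 ligands passed by genotype. No ligand passed by genotype or interaction under any alternative run. DESeq2 called 3 genes in cardiomyocytes, 6 in fibroblasts and 1 in the interaction over all genes, none a ligand.

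Signs were followed for every detected ligand in the cell type comparison, where they turned only for ligands that did not pass. For genotype and interaction they were followed only for the 3 ligands with the lowest p. For genotype Ccl2, Cxcl12, Cx3cl1 and Pf4 were followed as well. Other ligands were not checked there, and the cause of turned signs was not tested. By cell type, Ccl19 was 0.17 without WT mouse 2, and leaving out each mouse in turn gave −1.39 to 0.17. Ccl27a was −0.12 in the authors' table, −0.18 with rep1 alone, and −0.48 to 1.01 when mice were left out (−0.48 without Tg mouse 1, −0.31 without Tg mouse 2). By genotype, Ccl2 in cardiomyocytes was 0.30 with rep1 alone. Cx3cl1 in fibroblasts was 0.0729 without TMM, 0.0394 with mitochondrial genes kept, 0.0563 with DESeq2, 0.0243 with limma voom, 0.302 in the authors' table, 0.0471 with TMM within the cell type and 0.331 with the animal letter. Without Tg mouse 1, Tg mouse 3, WT mouse 2 and WT mouse 3 it was 0.03, 0.24, 0.25 and 0.07, and −0.28 at the lowest. The Cxcl11 interaction was 0.12 without WT mouse 2, 0.14 with rep1 alone and −3.68 at the lowest.

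Detection by at least 5 counts in 3 libraries gave 33 ligands, and by 10 counts in 6 libraries 27. The letter F stands in the codes of Tg mouse 1, Tg mouse 3 and WT mouse 1 and is unevenly spread over the genotypes. Low depth of cardiomyocyte libraries limits the ligands near the 3-count floor, and 3 mice per genotype limit the genotype comparisons.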
